A study of Mus musculus with 18 samples.

Results

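Livers of 6 Dp16-2xIFNRs mice were compared with livers of 6 Dp16 mice, which are 12 of the 18 libraries of the study, across 11839 expressed genes of the 55385 in the deposited table. A gene counted as expressed when it reached 1 CPM (its count scaled to the total of the library) in at least 6 of the 12 libraries, and 11224 of the genes kept were protein-coding. Dp16 mice have 1 more copy of a stretch of chromosome 16, which corresponds to human chromosome 21 and served as a model of its trisomy, counted here between positions 75540514 and 97962622 of GRCm38. Dp16-2xIFNRs mice carry the same extra stretch, but with the number of interferon receptor gene copies set back to the normal one. The third group, wild-type C57BL/6J, serves as a reference for levels here. Each group held 3 males and 3 females, and the mice were 17.1 to 18 weeks old. Each library is labelled as a separate sample of its group.

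The comparison therefore asks which liver transcripts differ when the extra segment is the same and the dosage of the receptor cluster is not. Ifnar1 and Ifnar2 form the receptor for type I interferons, Ifngr2 is a subunit of the receptor for interferon gamma, and Il10rb takes part in the receptors for type III interferons and for interleukin 10. These receptors signal through JAK kinases and STAT transcription factors, which switch on antiviral, antigen-presentation and inflammatory genes. In liver, both hepatocytes and resident macrophages respond to interferons.

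Total counts per library ran from 38236222 to 59923315 and did not separate the groups (mean difference -2620000 counts, two-sided exact permutation test, p = 0.461). Hepatocyte markers were abundant in every library, with a summed level of 127000 to 184000 CPM in Dp16-2xIFNRs and 105000 to 174000 CPM in Dp16. Dp16 libraries 4 and 5 stood apart from the other 10 libraries, with TMM scaling factors of 0.7765 and 1.35 against 0.8986 to 1.128 in the rest. Both came from mice of 17.1 weeks. Values without them are given beside the results they moved most. The descriptions carry a number whose meaning the labels do not give. It is highest in these libraries, and 3 pairs of Dp16-2xIFNRs and Dp16 libraries share one.

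The receptor genes were lower in Dp16-2xIFNRs than in Dp16 liver and close to wild-type, but with overlapping libraries and no adjusted p under 0.05. Ifnar1 (ENSMUSG00000022967.13, chromosome 16, 91485238 to 91507441) ranged from 18.3 to 26.9 CPM in Dp16-2xIFNRs (median 23.8), from 26.2 to 42.1 CPM in Dp16 (median 31.9) and from 19.5 to 25.2 CPM in wild-type (median 21.7). The groups nearly separated, as 5 of the 6 Dp16-2xIFNRs libraries lay below the lowest Dp16 library. The log2 fold change of Ifnar1 was -0.53 with a standard error of 0.14 (0.693-fold, edgeR quasi-likelihood test, Benjamini-Hochberg adjusted p = 0.467). Ifnar2 (ENSMUSG00000022971.18, 91372783 to 91405589) ranged from 61.5 to 81.9 CPM in Dp16-2xIFNRs (median 66.3) and from 63.6 to 98.5 CPM in Dp16 (median 93.9). Dp16 library 5 was the low one at 63.6 CPM, and the other 5 Dp16 libraries exceeded every Dp16-2xIFNRs library, which gave a log2 fold change of -0.37 (SE 0.129, edgeR adjusted p = 0.467).

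Il10rb (ENSMUSG00000022969.13, 91406164 to 91425834) was the least abundant of the receptors, at 5.29 to 10.5 CPM in Dp16-2xIFNRs (median 7) and 6.96 to 15.7 CPM in Dp16 (median 10.3). Its log2 fold change was -0.6 (SE 0.218, edgeR adjusted p = 0.467). Ifngr2 (ENSMUSG00000022965.8, 91547072 to 91565623) ranged from 21.7 to 41.1 CPM in Dp16-2xIFNRs (median 27) and from 26.5 to 51.9 CPM in Dp16 (median 36.6), with a log2 fold change of -0.44 (SE 0.191, edgeR adjusted p = 0.467). Female library 2 of Dp16-2xIFNRs was the highest of its group for Ifnar2, Il10rb and Ifngr2. In mean RPKM, Ifnar2 stood highest (20.6 in Dp16-2xIFNRs and 28.7 in Dp16), followed by Ifngr2 (7.24 and 10.5), Ifnar1 (5.65 and 9.24) and Il10rb (3.67 and 5.82). RPKM scale by gene length and by the library total without TMM, so their group differences need not match those in CPM. Against wild-type, in the same fit, the receptors had log2 fold changes of 0.07, 0.16, 0.17 and -0.04 in Dp16-2xIFNRs and 0.6, 0.53, 0.77 and 0.41 in Dp16, in the order Ifnar1, Ifnar2, Il10rb, Ifngr2. These comparisons share the wild-type libraries.

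**Figure D1:**
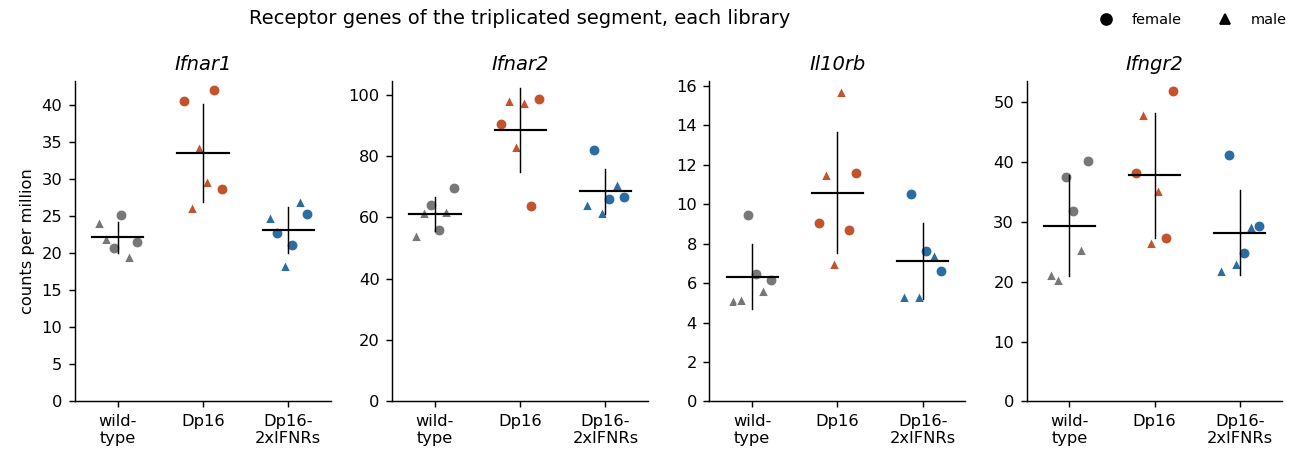
Level in CPM of the 4 receptor genes in each of the 18 libraries (circles female, triangles male), with group means as horizontal lines and SD as vertical lines (n = 6). The Dp16-2xIFNRs libraries lie around the wild-type ones, and 5 of 6 of them lie below all Dp16 libraries for Ifnar1.

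In the 3 pairs of libraries that share a description number, each receptor was lower in the Dp16-2xIFNRs member. The differences ran from -0.94 to -0.18 for Ifnar1, -0.57 to -0.37 for Ifnar2, -0.81 to -0.25 for Il10rb and -0.82 to -0.29 for Ifngr2 on the log2 CPM scale. By sex, the log2 fold change of Ifnar1 was -0.36 in males and -0.7 in females, and that of Il10rb was -0.92 in males and -0.25 in females. The sex difference had an interaction p of 0.266 for Ifnar1 and 0.119 for Il10rb in edgeR (adjusted p = 0.865 for both).

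Genes of the segment on either side of the receptor cluster differed less. Of 37 expressed genes before the cluster, 0 had an unadjusted p under 0.05 in the higher direction and 1 in the lower, with a median log2 fold change of -0.05. Of 39 after it, the counts were 1 and 4, also with a median of -0.05. Without Dp16 libraries 4 and 5 the counts were 1 higher and 4 lower before the cluster, and 6 higher and 5 lower after it. Over all genes the shares at that p were 2.12% higher (251 genes) and 8.46% lower (1002 genes) with all libraries kept. Without Dp16 libraries 4 and 5 they were 9.82% higher (1162 genes) and 12.5% lower (1484 genes). Against wild-type the medians were 0.44 and 0.49 in Dp16-2xIFNRs, and 0.63 and 0.59 in Dp16. Among the 5 expressed neighbours on each side, Tmem50b was the highest at 0.4, with 7.04 to 11.7 CPM in Dp16-2xIFNRs and 5.76 to 7.82 CPM in Dp16. Urb1, which has a role in ribosome biogenesis, was the lowest at -0.69 (SE 0.515), or -0.36 without Dp16 library 5. Son, a nuclear speckle protein of the same neighbourhood, had a log2 fold change of -0.59 (SE 0.284, edgeR adjusted p = 0.467), against a value of -0.55 fitted for genes of its length, and was -0.34 without Dp16 library 5. Farther after the cluster, Hlcs, which attaches biotin to carboxylases, had -0.62 (SE 0.236). On the other side, App, the amyloid precursor protein, had -0.4 (SE 0.187).

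Across all expressed genes, 0 of 11839 (0%) were called at an adjusted p under 0.05, in either direction, by the edgeR quasi-likelihood test, and the smallest adjusted p was 0.467. At an unadjusted p under 0.05 there were 1253 genes (10.6%). limma-voom called 0 genes and DESeq2 called 4 (0.0338%). The median log2 fold change was -0.02 with quartiles of -0.3 and 0.21, and the median biological coefficient of variation was 0.301. In data simulated with these group sizes, edgeR called 4 of 67 genes changed 1.5-fold, 27 of 67 changed 2-fold and 63 of 66 changed 4-fold. Each gene was drawn on its own, without length trends of single libraries or a tie between libraries that share a description number. The rates need not hold where such trends and ties are present. In the measured data, a log2 fold change above 0 was seen for 5684 genes (48%), of -1 or less for 157 genes (1.33%) and of 1 or more for 34 (0.287%). Libraries of the groups did not overlap for 5 genes higher (0.0422%) and 11 genes lower (0.0929%) in Dp16-2xIFNRs. The 5 higher genes, named after their values were seen, were Kdelr1, which retrieves proteins to the endoplasmic reticulum, Eral1, Gm15427, C430014B12Rik and Gm35164.

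The genes with the smallest p in each direction are given as values. Tacc2, a centrosome and microtubule protein, ranged from 2.5 to 6.03 CPM in Dp16-2xIFNRs (median 4.36) and from 5.77 to 16.4 CPM in Dp16 (median 10.2). Its 2 groups shared only a narrow band, with 5 of 6 Dp16-2xIFNRs libraries below all Dp16 libraries, and its log2 fold change was -1.28 (SE 0.262, edgeR adjusted p = 0.467). Cyp3a16, a cytochrome P450 that was female-biased in these libraries, measured 1.62, 8.07 and 8.35 CPM in the 3 female Dp16-2xIFNRs livers and 13.9, 43.3 and 109 CPM in the 3 female Dp16 livers. Male livers held at most 0.0941 CPM in these groups. The log2 fold change of Cyp3a16 was -2.96 (SE 0.607, edgeR adjusted p = 0.467), and that of Cyp3a41b, of the same family, was -2.29 (SE 0.71). They were -2.1 and -1.42 without Dp16 libraries 4 and 5. Cyp3a41a, a near-identical copy of Cyp3a41b with which the counting could divide reads, had -0.97 (SE 0.495), and -0.51 without Dp16-2xIFNRs library 4 or -1.56 without library 6. Pdzrn3, a ubiquitin ligase, had 0.393 to 2.15 CPM against 1.07 to 5.17 CPM in Dp16 (log2 fold change -1.23, SE 0.279). Col5a3, a fibrillar collagen chain, had 1.23 to 3.58 CPM against 2.91 to 14.4 CPM in Dp16 (-1.78, SE 0.416). Tacc2, Cyp3a16, Pdzrn3 and Col5a3 were the 4 genes called by DESeq2, with adjusted p of 0.0172 for Tacc2 and 0.0266 for the other 3.

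Zfp36l2, an RNA-binding protein that promotes mRNA decay, ranged from 16 to 35.8 CPM in Dp16-2xIFNRs and from 16.1 to 53.5 CPM in Dp16. Dp16 library 4 held the low value of 16.1 CPM and the other 5 Dp16 libraries, from 36.5 CPM up, exceeded every Dp16-2xIFNRs library. Its log2 fold change was -0.78 (SE 0.198, edgeR adjusted p = 0.467) and -0.92 without Dp16 libraries 4 and 5. Acer2, an alkaline ceramidase, had -0.88 (SE 0.223), Agap1, an Arf GTPase-activating protein, -0.89 (SE 0.221), Pik3cb, a catalytic subunit of phosphoinositide 3-kinase, -0.72 (SE 0.191), and Ddx10, an RNA helicase, -0.67 (SE 0.181). In the other direction, Tmem86b, a lysoplasmalogenase, ranged from 71.9 to 108 CPM in Dp16-2xIFNRs (median 78.8) and from 49.7 to 74.1 CPM in Dp16 (median 58). Only 1 Dp16-2xIFNRs library fell within the Dp16 range, and the log2 fold change was 0.49 (SE 0.132, edgeR adjusted p = 0.467). Cuta ranged from 32.4 to 43.3 CPM against 17.9 to 34.7 CPM in Dp16, with a log2 fold change of 0.52 (SE 0.143). Nkiras2, an inhibitor of NF-kappaB signalling, had 0.41 (SE 0.132), and Lmo2, a LIM-domain transcription cofactor, had 0.55 (SE 0.181).

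Fold change followed the length of the gene across the whole transcriptome. Over the 11839 genes, Spearman's rho between the log2 fold change and the exonic length was -0.64, a description across genes that share the same 12 libraries. A smooth trend on length fitted 38.9% of the variance of the log2 fold change over genes, while rho with the GC percent of the transcript was -0.02. When genes were divided by length into 10 classes of equal size, the median log2 fold change was 0.34 in class 1 (57 to 1220 bases), 0.23 in class 2, 0.13 in class 3 and 0.08 in class 4. It was -0.01, -0.08, -0.14, -0.22 and -0.33 in classes 5 to 9 and -0.5 in class 10 (7051 to 123179 bases). In class 1, 1076 of 1184 genes (90.9%) had a positive log2 fold change, and in class 10, 114 of 1184 (9.63%) did. At an unadjusted p under 0.05, class 1 held 69 genes higher and 2 lower, and class 10 held 0 higher and 403 lower. The trend was present at each expression level, with rho of -0.55, -0.69 and -0.68 in genes of low, middle and high abundance.

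**Figure D2:**
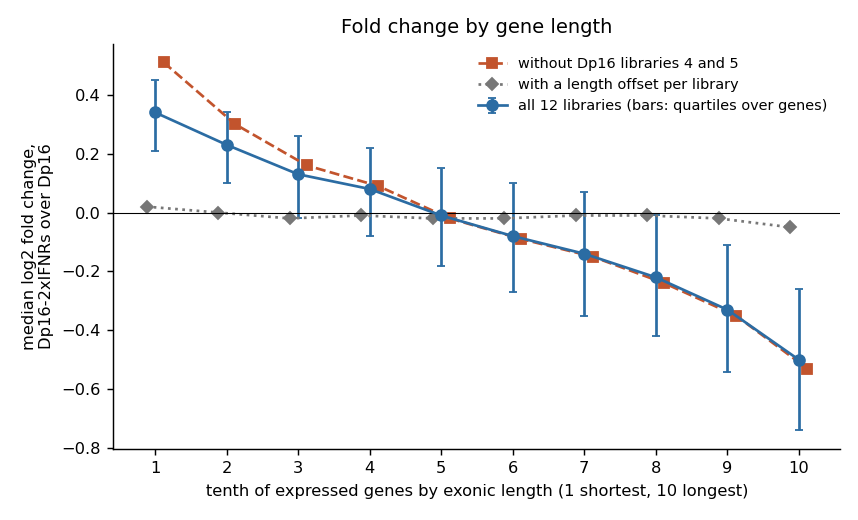
Median log2 fold change of Dp16-2xIFNRs over Dp16 in 10 classes of expressed genes by exonic length, with quartiles over genes as bars. The median passes from 0.34 in the shortest class to -0.5 in the longest, has a like course without Dp16 libraries 4 and 5, and stays between -0.05 and 0.02 with a length offset.

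The most abundant genes of the end classes show the trend and its exceptions. Apob, the large structural protein of lipoproteins, ranged from 943 to 1430 CPM in Dp16-2xIFNRs (median 1080) and from 695 to 3240 CPM in Dp16 (median 1770). Dp16 held both the lowest and the highest libraries, and the log2 fold change was -0.72 (SE 0.337, edgeR adjusted p = 0.467), against -0.61 fitted for its length. Fn1, the matrix protein fibronectin, ranged from 284 to 627 CPM in Dp16-2xIFNRs and from 209 to 1480 CPM in Dp16, with a log2 fold change of -0.97 (SE 0.382). Igf1, the liver's main circulating growth factor, also has a long transcript but went the other way, from 575 to 851 CPM in Dp16-2xIFNRs (median 714) and 538 to 732 CPM in Dp16 (median 566). All 6 Dp16-2xIFNRs libraries exceeded the Dp16 median, and the log2 fold change was 0.23 (SE 0.131, edgeR adjusted p = 0.512) where the length trend gave -0.51. Without Dp16 library 3 Apob had -0.45. Among short transcripts, Apoa1, the main protein of high-density lipoprotein, had 0.52 (SE 0.252), the urinary protein gene Mup3 0.33 (SE 0.359), and the mitochondrial genes mt-Cytb and mt-Nd2 0.26 each (SE 0.201 and 0.207). The last 3 turned negative in males alone, and the mitochondrial pair also with the length offset. Leaving out 1 library moved Apoa1 to 0.34 (without Dp16 library 5), Mup3 to 0.68 (without Dp16 library 4), and mt-Cytb and mt-Nd2 to between 0.14 and 0.41, with 0.16 for mt-Cytb without Dp16-2xIFNRs library 2, 0.14 for mt-Nd2 without library 5 and 0.41 for both without library 3.

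Per library, the trend was measured as the slope of log2 CPM, relative to the gene's mean over the 12 libraries, on log2 exonic length. The 6 Dp16-2xIFNRs libraries had slopes of -0.25, -0.195, -0.11, -0.0702, -0.052 and -0.0368 log2 units per doubling of length. The 6 Dp16 libraries had slopes of -0.428, -0.0495, 0.0499, 0.298, 0.322 and 0.521. The Dp16 slopes thus spread on both sides of the Dp16-2xIFNRs ones, and library 4 was the lowest and library 5 the highest of all 18. Wild-type slopes ran from -0.239 to 0.285. The mean was -0.119 ± 0.0855 in Dp16-2xIFNRs and 0.119 ± 0.337 in Dp16 (SD, n = 6), a difference of -0.238 that was not beyond the spread of the libraries (two-sided exact permutation test, p = 0.123, 0.115 within sex, and 0.506 adjusted over 6 library measures). With Spearman's rho of each library in place of the slope, the difference was -0.484, with an exact permutation p of 0.0541, or 0.045 within sex. Without Dp16 libraries 4 and 5 the difference was -0.274 with an exact permutation p of 0.00952, and without library 4 alone it was -0.347 with an exact p of 0.00433. Those libraries hold the extreme slopes, so leaving them out narrows the Dp16 SD, to 0.184 and 0.228. These p-values therefore show the dependence on those libraries and are not tests of the groups. In males the slope difference was -0.106 and in females -0.37, with an exact permutation p of 0.375 for the difference between the sexes. Within 1 sex, 3 against 3 libraries cannot give an exact p under 0.1.

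**Figure D3:**
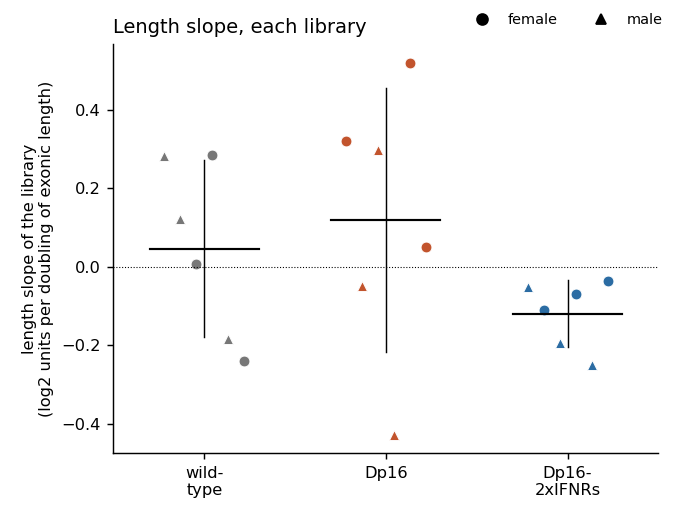
Length slope of each library, in log2 units per doubling of exonic length (circles female, triangles male, lines mean and SD, n = 6). The Dp16 libraries spread from -0.428 to 0.521, and the Dp16-2xIFNRs libraries lie between -0.25 and -0.0368.

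In the pairs that share a description number, the Dp16-2xIFNRs slope was the lower in each, at -0.052 against 0.298, -0.0702 against 0.322 and -0.0368 against 0.0499. Genes of the shortest class took 17.2% to 25.7% of the counts in Dp16-2xIFNRs and 10.3% to 25.8% in Dp16. Genes of the longest class took 1.93% to 2.32% and 1.42% to 5.65%. RNA quality values were not used here, and the part of RNA quality in the slopes was not tested. With an offset for each library's own length trend, rho was -0.02 and 660 genes had an unadjusted p under 0.05 (5.57%), of which 227 were higher (1.92%) and 433 lower (3.66%), with 0 called.

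Gene groups made of long transcripts lay at the negative end. Of 38 very large cytoskeletal, motor and adhesion genes, 26 had an unadjusted p under 0.05 and all 26 were lower, beside 8.46% of all genes in that direction. Their median log2 fold change was -0.84, where the length trend of the members gave -0.6. Golgb1, the giant Golgi protein giantin, ranged from 8 to 14.6 CPM in Dp16-2xIFNRs and from 11.2 to 49.8 CPM in Dp16 (log2 fold change -1.23, SE 0.362). Of 50 chromatin modifiers, 26 were lower at that p and 0 higher, with a median of -0.75, and the chromatin remodellers Bptf and Atrx had -1.25 (SE 0.397) and -1.03 (SE 0.352). With the length offset the medians were -0.21 and -0.24, with 8 and 5 members lower at that p, beside 3.66% of all genes. Of 44 splicing genes, 8 were lower and 0 higher (median -0.33, -0.24 with the offset and -0.16 without Dp16 library 5), with Sf3b1, a component of the U2 particle, at -0.59 (SE 0.184) and Rbm25 at -0.76 (SE 0.266). The splicing counts were 12 lower and 3 higher without Dp16 libraries 4 and 5, where 12.5% of all genes were lower and 9.82% higher. Adjusted p was 0.467 for each gene named here.

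Short-transcript groups lay at the positive end. All 79 cytosolic ribosomal protein genes were above 0, with a median of 0.39, a length trend of 0.29 and a median of 0.18 with the offset, but 0 had an unadjusted p under 0.05. The per-library median of this list, relative to the mean of the 12 libraries, ran from 0 to 0.63 in Dp16-2xIFNRs and from -1.39 (library 5) to 1.23 (library 4) in Dp16. Without those libraries its median was 0.67 and 66 of 79 had an unadjusted p under 0.05, where the share over all genes was 9.82% in that direction (1162 genes). Its median was 0.81 without library 4 alone and 0.22 without library 5 alone. Of 74 mitochondrial ribosomal protein genes, 73 were above 0, with 3 higher at that p, beside 2.12% of all genes with all libraries kept. Mrpl19 is an exception in length, at 0.48 (SE 0.22) against a trend of -0.25, while Mrpl45 had 0.39 (SE 0.146). Of 74 nuclear respiratory chain genes, 72 were above 0 and 1 was higher at that p, with a median of 0.37. Without Dp16 libraries 4 and 5, 34 of the mitochondrial ribosomal genes were higher and 0 lower, and 51 of the respiratory chain genes were higher and 2 lower, with medians of 0.46 and 0.57. The medians were 0.58 and 0.71 without library 4 alone, and 0.19 and 0.21 without library 5 alone.

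**Figure D4:**
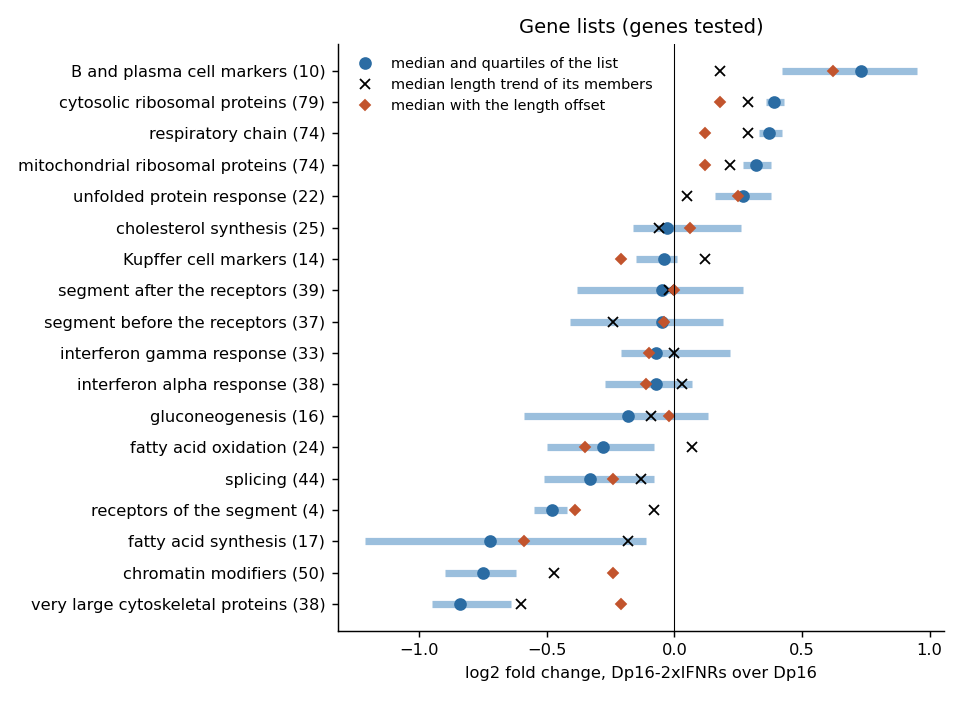
Median log2 fold change with quartiles (circles and bars) for 18 gene lists, with the median length trend of their members (crosses) and the median with a length offset (diamonds). The chromatin and very large cytoskeletal lists lie at the left, below their trend, and move to -0.24 and -0.21 with the offset, while fatty acid synthesis keeps a median of -0.59 and the unfolded protein response 0.25.

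Most genes of fatty acid synthesis had log2 fold changes below their length trend, 15 of 17 in all. Of these 17 members, 10 had an unadjusted p under 0.05 and all 10 were lower, beside 8.46% of all genes in that direction. After adjustment 0 were called, and the median was -0.72 where the length trend gave -0.18. With the length offset 7 were lower at that p, beside 3.66% of all genes, and the median was -0.59. Without Dp16 library 5 the median was -0.48. Lpin1, a phosphatidate phosphatase and coregulator, ranged from 26.9 to 151 CPM in Dp16-2xIFNRs (median 30.4) and from 20.5 to 574 CPM in Dp16 (median 194). The groups overlapped, since 2 Dp16 libraries, males 3 and 4, held 34.6 and 20.5 CPM, and the log2 fold change was -2.02 (SE 0.61, edgeR adjusted p = 0.467). Fasn, the fatty acid synthase, ranged from 182 to 555 CPM in Dp16-2xIFNRs (median 291) and from 148 to 2180 CPM in Dp16 (median 669), with a log2 fold change of -1.31 (SE 0.474) and -0.67 with the offset. Dp16 library 5 was the highest and library 4 the lowest for Fasn, Lpin1, Acaca and Acacb.

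The acetyl-CoA carboxylases, which make malonyl-CoA, had log2 fold changes of -1.22 (Acaca, SE 0.414) and -1.33 (Acacb, SE 0.434). Acacb ranged from 39.9 to 71.1 CPM in Dp16-2xIFNRs and from 28.9 to 409 CPM in Dp16. Mlxipl, the carbohydrate-responsive regulator ChREBP, had -1.21 (SE 0.491), Elovl6, a fatty acid elongase, -1.06 (SE 0.469), and Acly, which supplies cytosolic acetyl-CoA, -0.86 (SE 0.35). Me1, which makes NADPH, had -0.72 (SE 0.274), the desaturase Scd1 -0.68 (SE 0.272) and the elongase Elovl5 -0.39 (SE 0.163). Elovl5 has a length trend of 0, and all of these had an adjusted p of 0.467. Mlxipl had -0.67 and Elovl6 -0.62 without Dp16 libraries 4 and 5. Without library 5 alone, Acaca had -0.8, Mlxipl -0.49, Acly -0.48 and Elovl6 -0.47. Srebf1, Dgat2 and Thrsp were the 3 members above 0. G6pdx, the entry enzyme of the pentose phosphate pathway, had -1.1 (SE 0.335) with 7.04 to 16.7 CPM against 10.9 to 69.9 CPM in Dp16, at a length trend of 0.02.

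By library, the median deviation of the fatty acid synthesis list ran from -0.63 to 0.27 in Dp16-2xIFNRs and from -0.96 (library 4) to 1.31 (library 5) in Dp16. Without those libraries, 8 of 17 genes were lower at an unadjusted p under 0.05 and the median was -0.62, beside 12.5% (1484 genes) of all genes in that direction. Genes of fatty acid oxidation had a median of -0.28, with 18 of 24 below 0, 23 of 24 below their length trend and 1 at that p, namely Ppara, the nuclear receptor that regulates them (-0.58, SE 0.227). Without Dp16 libraries 4 and 5, 10 of 24 were lower at that p with a median of -0.43, and without Dp16 library 1 the median was -0.08. Genes of cholesterol synthesis had a median of -0.03, with 0 of 25 at that p. Without Dp16 libraries 4 and 5, 4 of them were higher, where 9.82% of all genes were. Of 16 gluconeogenesis genes, 4 were lower and 0 higher at that p, beside 8.46% and 2.12% of all genes. Among the 4 were the coactivator Ppargc1a (-0.79, SE 0.237), the transcription factor Foxo1 (-0.9, SE 0.283) and pyruvate carboxylase Pcx (-0.58, SE 0.234). The list median was -0.18, -0.02 with the offset, 0.03 without Dp16 library 3 and -0.29 without Dp16 libraries 4 and 5.

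**Figure D5:**
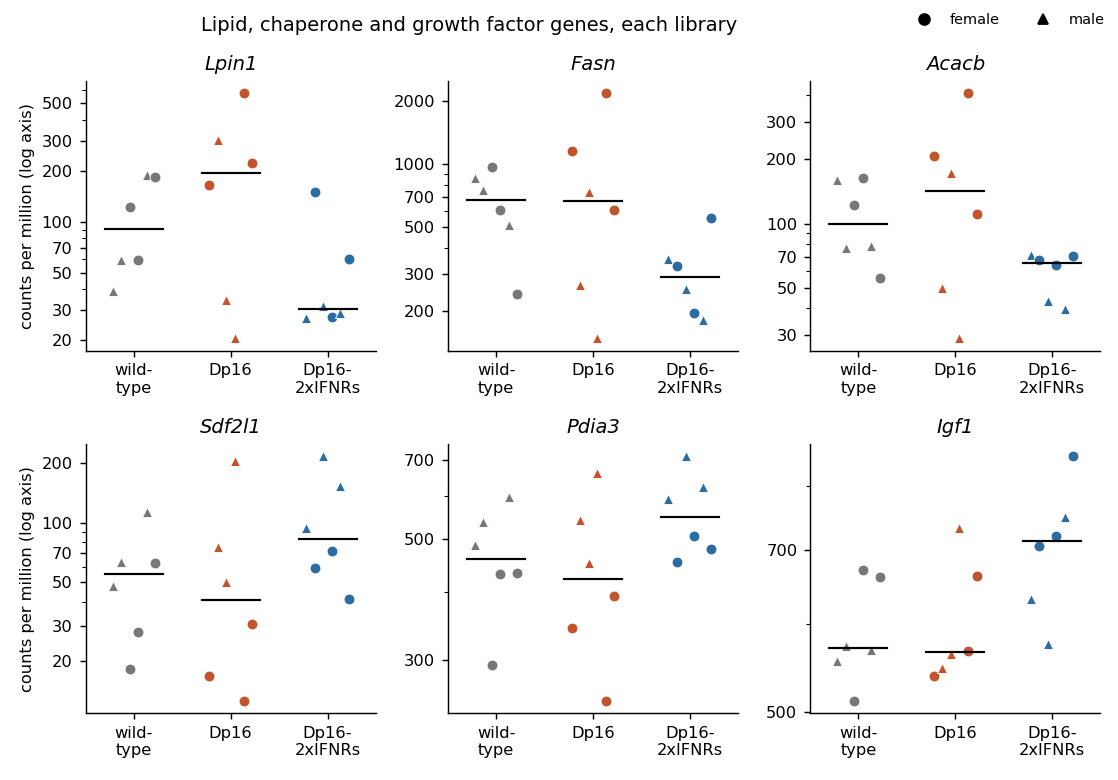
Level in CPM on log axes for Lpin1, Fasn, Acacb, Sdf2l1, Pdia3 and Igf1 in each library (circles female, triangles male, lines group medians). For Lpin1, Fasn and Acacb the Dp16 libraries span more than the Dp16-2xIFNRs libraries on both sides, and for Sdf2l1, Pdia3 and Igf1 all 6 Dp16-2xIFNRs libraries lie above the Dp16 median.

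Chaperones of the unfolded protein response, the program by which the endoplasmic reticulum adjusts its folding capacity, lay mostly above 0. Of 22 members, 19 had a positive log2 fold change and 19 lay above their length trend. An unadjusted p under 0.05 was seen for 3 and all 3 were higher, beside 2.12% of all genes in that direction. With the offset 4 were higher, beside 1.92% of all genes. The median was 0.27, or 0.25 with the offset and 0.17 without Dp16-2xIFNRs library 3. Sdf2l1, a cofactor of the chaperone BiP, ranged from 41.4 to 217 CPM in Dp16-2xIFNRs (median 82.8) and from 12.6 to 205 CPM in Dp16 (median 40.7). Every Dp16-2xIFNRs library exceeded the Dp16 median, while Dp16 library 4 reached 205 CPM, and the log2 fold change was 0.94 (SE 0.403, edgeR adjusted p = 0.467), or 1.42 without Dp16 library 4. Pdia3, a disulfide isomerase, ranged from 454 to 711 CPM against 252 to 662 CPM in Dp16, with 0.38 (SE 0.151), and Dnajb11, another BiP cofactor, had 0.37 (SE 0.17). The list's median by library ran from -0.34 to 0.56 in Dp16-2xIFNRs and from -0.68 to 0.41 in Dp16. In each group the 3 males lay above the 3 females.

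Promoter sequence shows what part of this list shares. The ER stress response element was searched as CCAAT and CCACG with any 9 bases between them, on both strands, in the 250 bases before the start of each RefSeq gene (GRCm38.p6). It was found for 7 of the 18 listed genes with an entry (Hspa5, Hsp90b1, Calr, Canx, Pdia6, Dnajc3 and Creld2), for 16 of 9208 expressed genes (0.174%) and in 37 of 32851 promoters (0.113%). The shorter CCAAT, which overlaps the element, was in 33.8% of promoters. Pdia3, Sdf2l1 and Dnajb11, the 3 members with an unadjusted p under 0.05, did not hold the element. Acacb of the fatty acid synthesis list, at -1.33, did. Of the holders not shown, Pdia6 had 0.23, Dnajc3 0.15, Hsp90b1 0.07 and Canx -0.09. A relation between the element and the fold changes was not tested. The 3 promoters shown belong to the element-holding genes of the list with the largest log2 fold changes, with the element in capitals, read 5′ to 3′ on the strand of the gene.
Creld2 (chr15:88819396-88819645, plus strand): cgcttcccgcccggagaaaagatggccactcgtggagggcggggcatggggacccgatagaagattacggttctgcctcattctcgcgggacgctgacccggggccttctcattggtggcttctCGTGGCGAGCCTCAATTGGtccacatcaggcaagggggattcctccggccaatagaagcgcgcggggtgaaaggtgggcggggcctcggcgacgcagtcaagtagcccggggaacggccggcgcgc
Hspa5 (chr2:34771840-34772089, plus strand): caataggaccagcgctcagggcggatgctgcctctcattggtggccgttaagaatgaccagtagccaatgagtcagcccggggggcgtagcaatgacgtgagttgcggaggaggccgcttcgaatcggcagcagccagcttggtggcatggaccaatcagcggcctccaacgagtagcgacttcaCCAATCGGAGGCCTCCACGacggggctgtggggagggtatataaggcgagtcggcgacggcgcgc
Calr (chr8:84846932-84847181, minus strand): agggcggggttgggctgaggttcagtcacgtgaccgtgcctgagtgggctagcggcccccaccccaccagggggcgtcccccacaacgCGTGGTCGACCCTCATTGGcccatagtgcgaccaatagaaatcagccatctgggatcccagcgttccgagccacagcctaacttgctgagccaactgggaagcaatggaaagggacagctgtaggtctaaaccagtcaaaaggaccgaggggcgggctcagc
Creld2, a secreted folding factor, ranged from 19.4 to 304 CPM in Dp16-2xIFNRs (median 65.1) and from 13.5 to 141 CPM in Dp16 (median 30.8), with a log2 fold change of 1.06 (SE 0.516, edgeR adjusted p = 0.47). Hspa5, the chaperone BiP, had 286 to 2210 CPM against 390 to 1590 CPM, with 0.46 (SE 0.35), which was 0.19 without Dp16-2xIFNRs library 3 and 0.71 without Dp16 library 4, and Calr, calreticulin, had 968 to 1570 CPM against 628 to 1430 CPM, with 0.29 (SE 0.147). These ranges overlap for each of the 3 genes, and the match describes letters only.

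The interferon response lists held no larger share of lower genes than the whole set, of which 8.46% were lower at an unadjusted p under 0.05. Of 38 interferon alpha response genes, 3 were lower and 0 higher at an unadjusted p under 0.05, with a median of -0.07, and of 33 interferon gamma response genes 2 were lower and 0 higher, with a median of -0.07, which was 0.1 without Dp16 library 2. Without Dp16 libraries 4 and 5 the alpha list had 3 higher and 5 lower, and the gamma list 0 higher and 2 lower with a median of -0.17. Over all genes the shares without those libraries were 9.82% higher and 12.5% lower. Samd9l, an antiviral factor, ranged from 3.68 to 10.4 CPM in Dp16-2xIFNRs (median 7.24) and from 5.36 to 17.3 CPM in Dp16 (median 10.5), with a log2 fold change of -0.71 (SE 0.236). Ifih1, the RNA sensor MDA5, had -0.45 (SE 0.152), and Oasl2, an oligoadenylate synthetase-like protein, -0.5 (SE 0.192). For Ifih1, 5 of 6 Dp16 libraries exceeded every Dp16-2xIFNRs library. Among the gamma-response genes, the GTPase Gbp7 had -0.72 (SE 0.285) and Nlrc5, the regulator of MHC class I genes, -1.21 (SE 0.539). Of 13 JAK and STAT genes and their inhibitors, 2 were lower and 0 higher, with Stat3 at -0.67 (SE 0.253). The length trends of Samd9l, Ifih1, Oasl2, Gbp7, Nlrc5 and Stat3 were -0.28, -0.29, -0.04, -0.3, -0.44 and -0.34, and 27 of the 38 alpha genes lay below their trend. With the offset, 4 of them were lower and 0 higher at that p, beside 3.66% of all genes, and the median was -0.11.

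Sex-biased and cell-type genes were measured beside these lists, and in bulk liver fewer cells of a type and less RNA per cell cannot be told apart. At an unadjusted p under 0.05, where 2.12% of all genes were higher and 8.46% lower, 2 of 18 female-biased genes were lower and 0 higher (median -0.44). With the offset the list had 6 lower, beside 3.66% of all genes, and a median of -0.53. It had 1 higher, 1 lower and a median of -0.21 without Dp16 libraries 4 and 5. Over all genes, the shares without those libraries were 9.82% higher and 12.5% lower, here and for such counts below. Of 17 male-biased genes, with all libraries kept, 2 were higher and 0 lower (median 0.33), namely Mup21 (0.79, SE 0.302) and Selenbp2 (0.84, SE 0.335). Their median was 0.02 with the offset, 0.57 with 5 higher without Dp16 libraries 4 and 5, and 0.11 without Dp16-2xIFNRs library 5. Of 20 stellate cell and matrix genes, 5 were lower and 0 higher (median -0.17, length trend -0.28), and 0 were lower with the offset. The median was -0.34 without Dp16-2xIFNRs library 3 and -0.06 without library 5. The collagen chain Col6a3 had -0.86 (SE 0.278), or -0.55 without Dp16 libraries 4 and 5. Of 19 endothelial genes 3 were lower and 0 higher, or 5 lower and 1 higher without Dp16 libraries 4 and 5, with the scavenger receptor Stab2 at -0.88 (SE 0.341) and the VEGF receptor Kdr at -0.71 (SE 0.311). The endothelial median was -0.1 at a length trend of -0.1, 6 of 19 genes lay above 0, and 0 were lower with the offset. The summed levels of both lists overlapped, at 343 to 513 CPM against 381 to 615 CPM in Dp16 for stellate and matrix genes, and 362 to 461 against 373 to 582 CPM for endothelial genes. B and plasma cell markers had a median of 0.73, or 0.45 without Dp16-2xIFNRs library 4, with 10 of 10 above 0 and 0 at an unadjusted p under 0.05. They summed to 621 to 1320 CPM in Dp16-2xIFNRs and 398 to 869 CPM in Dp16, with means of 849 and 631 CPM. Most of that sum came from Sdc1 (means of 360 and 314 CPM) and Xbp1 (238 and 187 CPM). Xbp1 is also in the unfolded protein response list. Erythroid markers had a median of 0.49, with 6 of 6 above 0 and 0 at that p, which was 1.1 without Dp16 library 4 and 0.27 without library 5. Kupffer cell markers summed to 565 to 733 CPM against 562 to 768 CPM. Complement gene C4b had -0.75 (SE 0.274), with 379 to 526 CPM against 300 to 1080 CPM in Dp16. Most of its list went the other way, as 20 of 34 complement and coagulation genes were above 0 and 14 below. The list median was 0.09, or 0.06 with the offset, with 3 lower and 0 higher at an unadjusted p under 0.05. Across the genome, 0 genes had a group-by-sex interaction at an adjusted p under 0.05 in edgeR, and 367 (3.1%) had an unadjusted p under 0.05.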

How the data were processed

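RNA from 18 livers had been extracted with TRIzol and sequenced as strand-specific, polyadenylated, paired-end libraries, per the labels' protocols. HISAT2 2.1.0, HTSeq 0.6.1 and the build GRCm38 are listed, among others, per the submitters' processing notes. For strand and for reads shared by genes, no setting was given in the sources used here. The authors deposited counts per gene, used as they stand, and RPKM values, which imply 1 exonic length per gene in every library. Coordinates came from GENCODE M21, where 99.56% of identifiers were found.

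Genes with a CPM of at least 1 in 6 of the 12 libraries were kept. Counts were scaled by TMM and tested with the edgeR 4.0.16 quasi-likelihood test under R 4.3.3. Terms were group and sex, the wild-type libraries sharing the estimate of spread. P-values were Benjamini-Hochberg adjusted over all 11839 genes. CPM are TMM-scaled except in the filter, and log2 CPM used a prior count of 2. Standard errors are the log2 fold change divided by the root of edgeR's F statistic. The length trend was a natural spline with 4 degrees of freedom, and the offset subtracted it per library. Alternatives used DESeq2 1.42.0, limma 3.58.1, other scalings, filters and terms, log2(RPKM + 0.1) or log2(RPKM + 1), each sex and each library left out. The scripts were tested on simulated data. Genes were named by smallest p per direction and list, by abundance in the end length classes and by position next to the receptors, and Kdelr1, Eral1, Gm15427, C430014B12Rik, Gm35164, Srebf1, Dgat2, Thrsp, Creld2, Hspa5, Calr and members of the fatty acid synthesis list beyond the first 3 were chosen after their values were seen. The comparison and the gene lists were chosen with earlier results of these data known. No label says that the livers came from separate litters, so p-values measure the spread between these samples.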

Additional observations from a re-analysis of the deposited data

Results flagged for a closer look

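In 152 groups of 6 libraries examined (71 named genes and 5 library measures, 2 genotypes each), 9 held a library farther from the rest than Dixon's critical value at 95% allows, where chance flags about 1 group in 20. Dp16 library 4 was the one for Zfp36l2 (16.1 CPM, the others 36.5 to 53.5), Agap1 (3.89 CPM, the others 6.65 to 7.8), Lmo2 (4.99 CPM, the others 2.9 to 3.51) and Hspa5 (1590 CPM, the others 390 to 656). Dp16-2xIFNRs library 6 was the one for Cuta (32.4 CPM, the others 40 to 43.3), Acaca (98.2 CPM, the others 30.6 to 46.5) and Elovl6 (193 CPM, the others 67.5 to 90.9). Ifih1 was low in Dp16-2xIFNRs library 3 (12 CPM, the others 18.5 to 22.9), and App was low in Dp16-2xIFNRs library 5 (38.5 CPM, the others 66.3 to 86.9). Among the named genes, 0 had a sex interaction at an adjusted p under 0.05.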

How the results depend on the processing

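DESeq2 called 4 genes in place of 0, and every other planned setting called 0. Genes with an unadjusted p under 0.05, 1253 in the fit as reported, numbered 660 with the length offset, 2098 with no filter on low counts, 2580 with age as a term, 2804 with the description number as a random block, 116 in males alone, 2484 in females alone and 2646 without Dp16 libraries 4 and 5. They ranged from 453 without Dp16 library 5 to 4116 without Dp16 library 4 when 1 library was left out. With the length slope of the library as a term, chosen after seeing the data, they numbered 531. Total counts without TMM moved the median log2 fold change from -0.02 to -0.15. The length slope difference, -0.238, was -0.274 without Dp16 libraries 4 and 5. With 1 library left out it ran from -0.347 (without Dp16 library 4) to -0.157 (without Dp16 library 5). Its exact permutation p was under 0.05 where library 4, the one of lowest slope, was left out, and such a p is not a test of the groups. The receptors stayed negative under every setting run, from -0.59 to -0.46 (Ifnar1), -0.46 to -0.33 (Ifnar2), -0.71 to -0.42 (Il10rb) and -0.55 to -0.3 (Ifngr2) with 1 library left out. mt-Cytb was -0.11 and mt-Nd2 -0.12 with the length offset, and in males alone mt-Cytb was -0.06, mt-Nd2 -0.02 and Mup3 -0.02, and the cause was not tested. Cyp3a41a was 0 in males alone, where it had no counts in any Dp16 or Dp16-2xIFNRs library.

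With the replicate number as a block, 0 genes were called and 1134 had an unadjusted p under 0.05, and Ifnar1 was -0.52, Ifnar2 -0.36, Il10rb -0.58 and Ifngr2 -0.42. The numbers did not pair the samples, since same-numbered libraries correlated from -0.48 to 0.58 in their deviations and 2 of 6 pairs exceeded 0.1. The 3 pairs that share a description number correlated at 0.53 to 0.58, and the consensus correlation within a number was 0.49. With that number as a random block in limma-voom, 0 genes were called, and 2804 had an unadjusted p under 0.05 against 1321 in limma-voom without it. With 6 libraries a group, simulated 1.5-fold changes were called for 5.97% of genes, in data without a tie between libraries that share a number.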
